A study of Rattus norvegicus with 192 samples.

Results

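The prefrontal cortex (PFC) of rats fed whole egg was compared between Zucker Diabetic Fatty (ZDF) rats and their lean controls. The comparison took in 12 libraries of the 192 in the series, 6 from ZDF rats and 6 from lean rats, and was made over the 8289 genes present in both the lean and the ZDF count table of the PFC. ZDF rats were males homozygous for the fa allele of the leptin receptor (fa/fa) and lean controls were heterozygous males (fa/+). All 12 rats were obtained at 6 wk of age and had free access to a diet with 20% protein from whole egg for 8 wk. The same genotypes on a casein (CAS) diet, another 12 rats, were used beside them, as were the kidney and adipose tissue of the 12 whole egg rats. No other treatment was given in the labels. Genotype was read from the column names of the count tables, because the strain in the sample labels named the other genotype for 7 of the 12 whole egg rats and for 12 of the 24 rats in all. The lean controls carry 1 copy of the fa allele, so they are not wild type.

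Leptin is a hormone of fat cells that signals energy stores to the brain through its receptor, Lepr, which acts through JAK and STAT proteins. The fa allele changes a base in Lepr and blunts this signal, and fa/fa males become obese and diabetic. The leptin receptor is best known from the hypothalamus, and the PFC is a cortical region that also responds to feeding state, stress and insulin. Its cells respond to activity by switching on immediate early genes such as Egr1 within minutes, and they carry the circadian clock genes of most tissues.

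In the PFC of whole egg rats, 1 gene of 8289 passed at a false discovery rate (FDR) of 5% in the quasi-likelihood test of edgeR, which is 0.0121% of the genes tested. It was ENSRNOG00000011815, higher in ZDF rats, and none of the tables used here pairs this identifier with a gene name. No gene was lower at that threshold. At an unadjusted p under 0.05 there were 489 genes (5.9%), 221 of them higher (2.67%) and 268 lower (3.23%) in ZDF rats. That number was 273 to 1036 when 1 rat was left out, with 273 without ZDF rat 16, 319 without lean rat 13, 757 without lean rat 10 and 1036 without ZDF rat 20. The median log2 ratio of all genes was 0.01, where a log2 ratio is the fitted value of ZDF over lean on the same diet. In 22 genes (0.265%) the 6 ZDF rats did not overlap with the 6 lean rats in CPM, the count of a gene scaled to the size of its library by TMM, 16 of them higher (0.193%) and 6 lower (0.0724%) in ZDF rats, and 0 of these had a gene symbol. On CAS, 9 of the 22 (40.9%) had a log2 ratio of the same sign, beside 37.0% of all genes, and 0 separated the genotypes on both diets.

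ENSRNOG00000011815 stood at 30.5 CPM in lean rat 2, 25.9 in rat 6, 26.4 in rat 10, 24.4 in rat 13, 25.7 in rat 17 and 44.1 in rat 21. In ZDF rats it stood at 52.9 CPM in rat 7, 64.3 in rat 11, 54.8 in rat 16, 96.3 in rat 18, 82.9 in rat 20 and 82.7 in rat 22. All 6 ZDF rats were above all 6 lean rats, and lean rat 21 was the nearest to the ZDF range. The means were 29.5 ± 7.46 CPM in lean and 72.3 ± 17.6 CPM in ZDF rats (SD, n = 6 rats each). The log2 ratio was 1.29 (SE 0.20, adjusted p = 0.0378), a fold of 2.44. Its counts ranged from 44 in lean rat 13 to 590 in ZDF rat 22, so the value did not rest on a few reads. The call was near the threshold: it was lost in 9 of 12 fits that each left out 1 rat (lean rat 2, 6, 10, 13 or 17, or ZDF rat 11, 18, 20 or 22), with an adjusted p of 0.00872 to 0.188 and a log2 ratio of 1.19 to 1.44 over the 12 fits.

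The CAS rats gave the same contrast in other animals. ENSRNOG00000011815 ranged from 20.6 to 35.2 CPM in the 6 lean CAS rats (median 28.8) and from 18.1 to 128.2 CPM in the 6 ZDF CAS rats (median 64.3). The low value of 18.1 CPM belonged to ZDF rat 3, whose library held 67861 counts and 1 count of this gene, and the other 5 ZDF rats were at 57.3 CPM or above, over every lean rat. The log2 ratio on CAS was 1.41 (SE 0.29, adjusted p = 0.115 in edgeR), and the difference between the diets was -0.15 (SE 0.34, adjusted p = 0.89 for the interaction). Without rats 3 and 5, whose libraries were the shallowest, the log2 ratio on CAS was 1.52 (SE 0.27, adjusted p = 0.253), and the gene was at rank 1 of the 8289 by p, against rank 6 with all 12 CAS libraries. A model with 1 genotype term over the 24 PFC libraries, chosen after the data were seen, gave 1.35 (SE 0.17, adjusted p = 4.46e-05) and called this gene alone. That model includes the whole egg libraries in which the gene was first called, so its p is not a separate test.

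In the kidney of the same whole egg rats, ENSRNOG00000011815 ranged from 34.9 to 80.7 CPM in lean rats and was at 65.0 CPM in ZDF rat 7, 94.3 in rat 11, 155.8 in rat 16, 757.2 in rat 18, 350.3 in rat 20 and 162.6 in rat 22. Here 5 of 6 ZDF rats were above all lean rats, and ZDF rats 18 and 20 were the highest, with rats 16 and 22 well below them. The log2 ratio in the kidney was 2.22 (SE 0.46, adjusted p = 0.336), which was the smallest p of the 6797 kidney genes but did not pass. Of these 6797 genes edgeR called 0 and DESeq2 called 2, and 314 (4.62%) were at an unadjusted p under 0.05 in edgeR. In adipose tissue the gene ranged from 23.9 to 268.1 CPM in lean and from 23.9 to 160.7 CPM in ZDF rats, with a log2 ratio of -0.47 (SE 0.67, adjusted p = 0.985), and there edgeR called 0 of 7395 genes and DESeq2 called 9, with 415 (5.61%) at an unadjusted p under 0.05 in edgeR. In adipose tissue 3 libraries stood apart. Lpl, which is high in fat cells, was at 330 and 52.1 CPM in lean rats 6 and 13 and at 1475 CPM in ZDF rat 11, whose library held 30819 counts, and at 7647 CPM or above in the other 9. The highest lean value, 268.1 CPM, was that of rat 6, and without it the log2 ratio of ENSRNOG00000011815 in adipose tissue was 0.42 (SE 0.57, adjusted p = 1.00), so its sign there rested on 1 library. Without rats 6, 11 and 13, a choice made after the data were seen, it was 0.56 (SE 0.62, adjusted p = 0.968). Kidney and adipose values come from the animals of the PFC comparison and are not further replicates.

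**Figure D1:**
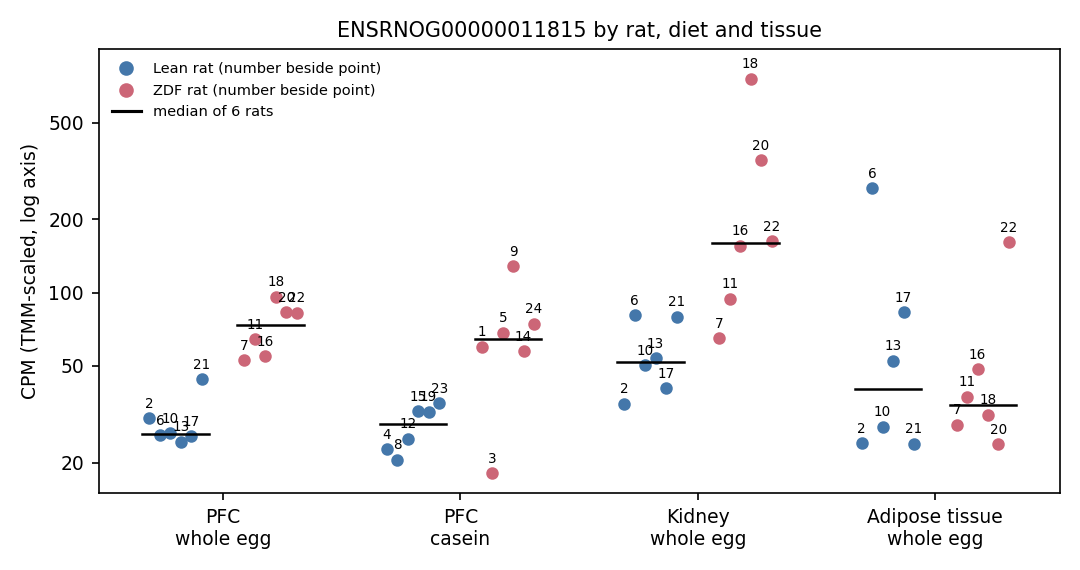
CPM of ENSRNOG00000011815 (log axis) in single rats by tissue and diet, with lean rats in blue, ZDF rats in red, rat numbers beside the points and a line at each median of 6. In the PFC the ZDF rats lie at 52.9 to 96.3 CPM on whole egg, above the lean rats at 24.4 to 44.1, and on casein ZDF rat 3, at 18.1 CPM, lies below the lean rats and the other 5 ZDF rats lie above them.

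Lean and ZDF counts were deposited in separate tables, so a difference between genotypes and one between the tables cannot be told apart. In the lean PFC table a gene had at most 1 library without a count and in the ZDF table at most 2, of 12 each, and 3090 genes stood only in the lean table against 65 only in the ZDF table. The lean-only gene with the most counts, ENSRNOG00000043866, took 5.01% to 15.0% of the counts of the lean whole egg libraries and has no row in the ZDF table, so it is not analysed here. Library totals in the PFC were 2015473 to 4128858 in lean and 2626621 to 7080897 in ZDF whole egg rats. Mbp, a myelin protein, ranged from 1717 to 6589 CPM in the 12 PFC libraries against 12.7 to 305.5 CPM in the kidney of these rats, and Rtn1, a reticulon of neurons and endocrine cells, from 2722 to 3750 CPM against 12.3 to 170.2 CPM. The first 3 principal components of log2 CPM held 30.1%, 18.3% and 9.84% of the variance, and ZDF and lean rats overlapped on each (exact permutation test over 924 splits, two-sided, p = 0.561, 0.0649 and 0.838; adjusted over the 3, 0.838, 0.195 and 0.838).

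The genes next in order of p did not pass in edgeR. ENSRNOG00000029886, which was picked after its values were seen, ranged from 578.0 to 992.6 CPM in lean rats (median 666.6) and from 810.0 to 2233 CPM in ZDF rats (median 1398), and ZDF rat 20 was the 1 ZDF rat within the lean range. Its log2 ratio was 1.03 (SE 0.21, adjusted p = 0.572) on whole egg and 0.02 (SE 0.32) on CAS. On the lower side, ENSRNOG00000012512 had the smallest p, with 7.15 to 67.6 CPM in lean rats (median 18.3) and 4.21 to 10.1 CPM in ZDF rats (median 8.36). Its lean values were spread more widely than its ZDF values, with rats 10 and 13 at 46.6 and 67.6 CPM, and its log2 ratio was -1.90 (SE 0.43, adjusted p = 0.572) on whole egg and 0.92 (SE 0.50) on CAS. ENSRNOG00000059057 did separate the groups, at 7.35 to 11.4 CPM in lean and 2.47 to 5.89 CPM in ZDF rats, with a log2 ratio of -1.08 (SE 0.27, adjusted p = 0.585). It had few counts, 8 to 42 per whole egg library. On CAS its log2 ratio was 0.39 (SE 0.44), or 0.29 (SE 0.41) without rats 3 and 5, whose libraries were shallow. The lean CAS rats were at 3.35 to 6.98 CPM, and the difference between the diets was -1.46 (SE 0.47, adjusted p = 0.474). DESeq2 called 4 genes, among them ENSRNOG00000011815, ENSRNOG00000029886 and ENSRNOG00000012512, and also ENSRNOG00000007390, with a log2 ratio of 0.75 (adjusted p = 0.0252), which was picked after its values were seen.

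**Figure D2:**
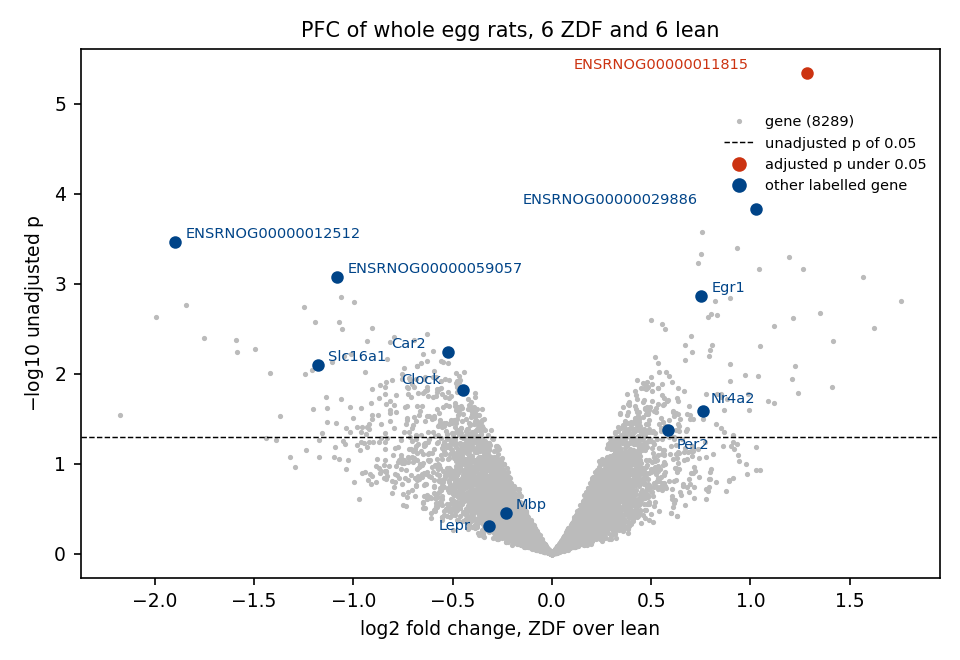
Each point is 1 of 8289 genes in the PFC of whole egg rats, with the log2 ratio of ZDF over lean on the x axis and -log10 of the unadjusted p from edgeR on the y axis. The red point, ENSRNOG00000011815, is the 1 gene with an adjusted p under 0.05, and the dashed line marks an unadjusted p of 0.05.

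Symbols were known for 409 of the 8289 genes, all from the list of genes that the study called for diet in some tissue. Of these, 0 passed in edgeR, DESeq2 or limma-voom, and 27 (6.6%) had an unadjusted p under 0.05 in edgeR, 11 higher and 16 lower in ZDF rats, where the share over all genes was 5.9%. Their median log2 ratio was -0.05. Of 26 lists of pathway and marker genes, 16 had a measured member with a symbol, 66 different genes in all. These members are thus also genes that the study called for diet, and not a free sample of each list. Over these 66 genes 0 passed in edgeR, DESeq2 or limma-voom, and the median log2 ratio was -0.01. In edgeR 8 of them (12.1%) had an unadjusted p under 0.05, beside 5.9% over all genes. The other 10 lists, which include the markers of astrocytes, microglia, inhibitory neurons and blood, had no member to measure.

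Lepr (ENSRNOG00000023664), the gene that carries the fa allele, had few counts, 1 to 14 per library. It ranged from 1.11 to 3.05 CPM in lean rats (median 2.10) and from 0.312 to 2.66 CPM in ZDF rats (median 1.83), so the groups overlapped, with a log2 ratio of -0.32 (SE 0.45, adjusted p = 0.886). The fa allele changes the receptor protein rather than removing the transcript, so this level is no check of the genotype. Lepr was 1 of 12 genes of the leptin receptor list that could be measured with a symbol. For insulin and IGF signalling that gene was Pik3ca, the catalytic alpha subunit of PI3-kinase, with a log2 ratio of -0.09 (SE 0.15, adjusted p = 0.915).

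Of the named genes with a symbol, Egr1 had the smallest p. Egr1 (ENSRNOG00000019422) is a zinc finger transcription factor induced by neuronal activity, and its values were 418.9, 337.4, 410.7, 407.1, 258.2 and 503.4 CPM in lean rats 2, 6, 10, 13, 17 and 21. In ZDF rats 7, 11, 16, 18, 20 and 22 they were 607.5, 992.7, 401.5, 698.1, 601.3 and 633.6 CPM. All ZDF rats but rat 16 were above every lean rat, and the log2 ratio was 0.75 (SE 0.20), which did not pass over all genes (adjusted p = 0.739). Nr4a2, an orphan nuclear receptor that is both an immediate early gene and a marker of deep cortical neurons, ranged from 20.9 to 59.6 CPM in lean rats (median 36.0) and from 33.0 to 118.6 CPM in ZDF rats (median 56.1). ZDF rats 18, 20 and 22 were above all lean rats and rats 7, 11 and 16 were within the lean range, with a log2 ratio of 0.76 (SE 0.31, adjusted p = 0.798). Inhba, the activin beta A subunit, differed by -0.05 (SE 0.37) between ranges of 4.69 to 11.1 CPM in lean and 2.10 to 13.6 CPM in ZDF rats. The 3 immediate early genes measured, of 30 in the list, had a median log2 ratio of 0.75 beside 0.01 for all genes, and 0 of 3 passed. On CAS the log2 ratio of Egr1 was -0.44 (SE 0.33), and the difference between the diets was 1.16 (SE 0.38, adjusted p = 0.474). Without rats 3 and 5 these were -0.15 (SE 0.25) and 0.90 (SE 0.32, adjusted p = 0.482). For Nr4a2 the log2 ratio was 0.38 (SE 0.31) on CAS. The study states that rats were anesthetized with ketamine and xylazine before tissues were taken. The part of this procedure in the levels of immediate early genes was not tested.

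The promoters of Egr1 and Nr4a2, from 250 bases before the start of the gene to 50 after it, are shown because they differ in the elements through which activity is known to act on immediate early genes. They are RefSeq sequences of the rat build GRCr8, written 5′ to 3′ on the strand of the gene, with Egr1 at chr18:26736828-26737127 on the plus strand and Nr4a2 at chr3:62104838-62105137 on the minus strand. Capitals mark the CArG box, the site of serum response factor, and TGACG, the core of the CREB site, searched on both strands (on the other strand it reads CGTCA). No CArG match overlaps a TGACG match.
Egr1: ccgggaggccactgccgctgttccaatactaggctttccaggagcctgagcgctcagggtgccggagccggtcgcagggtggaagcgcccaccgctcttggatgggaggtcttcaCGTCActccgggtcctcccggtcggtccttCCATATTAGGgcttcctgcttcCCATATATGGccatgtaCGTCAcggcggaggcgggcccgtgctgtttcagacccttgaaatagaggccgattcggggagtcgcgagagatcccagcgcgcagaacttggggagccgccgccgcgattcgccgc
Nr4a2: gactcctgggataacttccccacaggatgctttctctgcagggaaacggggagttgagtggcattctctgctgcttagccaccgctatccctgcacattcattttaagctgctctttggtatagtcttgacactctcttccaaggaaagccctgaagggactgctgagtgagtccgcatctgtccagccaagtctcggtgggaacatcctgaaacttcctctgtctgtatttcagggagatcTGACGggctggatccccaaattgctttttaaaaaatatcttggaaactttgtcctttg
Egr1 has 2 CArG boxes and 2 TGACG matches, and Nr4a2 has 0 and 1 in this window. Of 33469 promoters of this length, 548 (1.64%) hold a CArG box and 7 (0.0209%) hold at least 2, while 7097 (21.2%) hold TGACG on either strand. These matches describe the letters and show no binding in the PFC.

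Clock genes had log2 ratios of both signs. Clock, the partner of BMAL1 in the activating arm, ranged from 27.2 to 39.3 CPM in lean rats (median 33.9) and from 20.7 to 31.7 CPM in ZDF rats (median 23.7). ZDF rat 20 alone was within the lean range, the other 5 were below it, and the log2 ratio was -0.45 (SE 0.17, adjusted p = 0.798). Per2, a repressor of that arm, ranged from 6.97 to 23.4 CPM in lean and from 16.9 to 41.5 CPM in ZDF rats, with a log2 ratio of 0.59 (SE 0.27, adjusted p = 0.798). Lean rat 6 was the lowest and ZDF rat 18 the highest for Per2, and the groups overlapped. Dbp, an output gene of the clock, had a log2 ratio of 0.36 (SE 0.27) and Per3 of -0.06 (SE 0.30). On CAS the log2 ratios of Clock, Per2 and Dbp were -0.35 (SE 0.32), 0.45 (SE 0.39) and -0.31 (SE 0.28). The 4 clock genes measured, of 20 in the list, had a median of 0.15, and 0 of 4 passed. Time of day at tissue collection was not tested, since the labels do not give it.

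**Figure D3:**
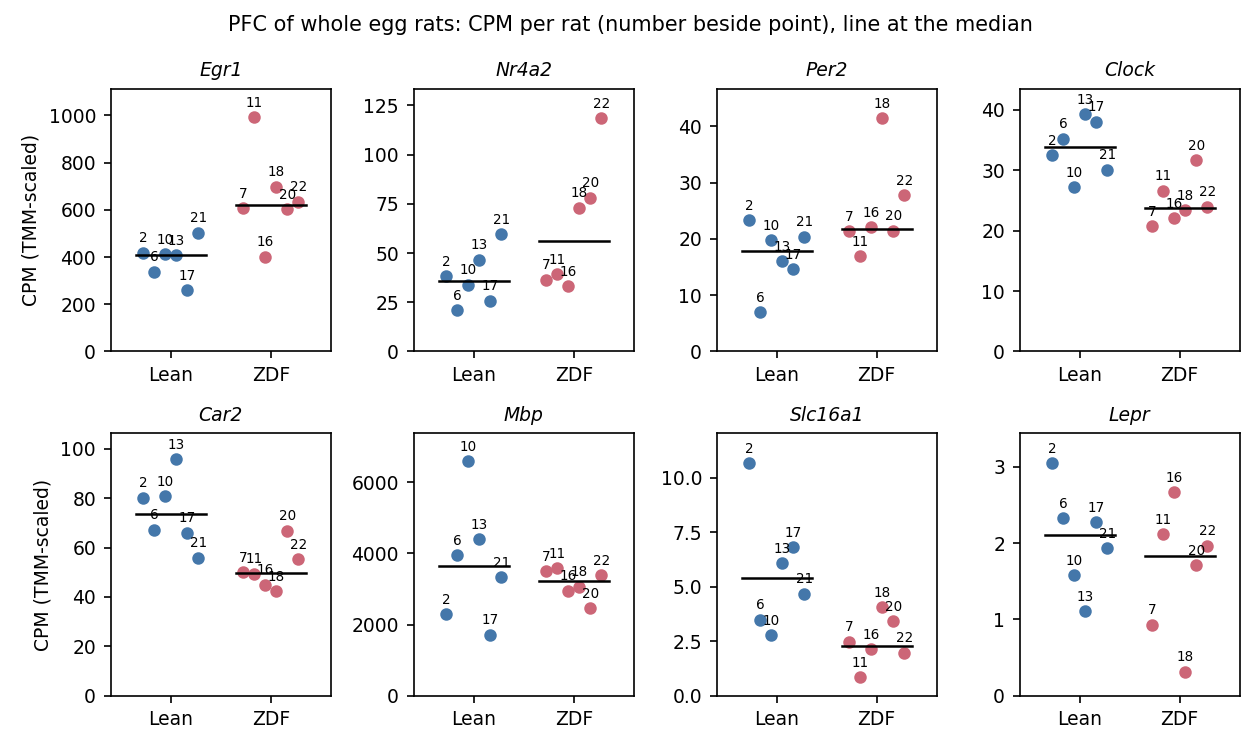
CPM of 8 genes in the PFC of single whole egg rats, lean in blue and ZDF in red, with rat numbers beside the points and a line at each median of 6. Egr1 shows 5 of 6 ZDF rats above the lean maximum of 503.4 CPM, Clock shows 5 of 6 ZDF rats below the lean minimum of 27.2 CPM, and Mbp shows the lean rats spread from 1717 to 6589 CPM around the ZDF rats.

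Genes of myelin and its cells had negative log2 ratios in 4 of 4 measured members (of 24 in the list), with a median of -0.28, and 0 of 4 passed. Car2, a carbonic anhydrase of oligodendrocytes, ranged from 56.0 to 95.8 CPM in lean rats (median 73.8) and from 42.4 to 66.8 CPM in ZDF rats (median 49.8), a log2 ratio of -0.52 (SE 0.17, adjusted p = 0.798). The ZDF rats other than rat 20 were below all lean rats. Mbp ranged from 1717 to 6589 CPM in lean and from 2458 to 3587 CPM in ZDF rats, so that the ZDF range lay inside the lean range, with a log2 ratio of -0.23 (SE 0.25). Enpp2, which makes lysophosphatidic acid and is also high in choroid plexus, had a log2 ratio of -0.32 (SE 0.34), which was -0.75 (SE 0.27) without ZDF rat 20. Qdpr, a pteridine reductase, had a log2 ratio of -0.24 (SE 0.23). With limma-voom Enpp2 was at -0.69, Qdpr at -0.09 and Mbp at 0.006. Over the fits that left out 1 rat, Mbp was at -0.39 to 0.01, Qdpr at -0.38 to -0.04, Car2 at -0.62 to -0.44 and Enpp2 at -0.75 to -0.20. In these fits Mbp was positive only without lean rat 10. The summed level of the 4 markers was 1904 to 6987 CPM in lean and 2647 to 3873 CPM in ZDF rats, and its part in the values of Car2 was not tested. Mbp made up most of this sum, so it follows Mbp rather than the 4 genes alike. On CAS the median of the 4 was 0.11, or -0.02 without the shallow libraries of rats 3 and 5, with Mbp at 0.32 and -0.49, Enpp2 at 0.23 and 0.12, Car2 at -0.01 and 0.09 and Qdpr at -0.15 and -0.13. In bulk tissue, fewer cells of a type and less RNA per cell cannot be told apart. Of markers of meninges and choroid plexus, Col3a1, a fibrillar collagen, had a log2 ratio of -0.62 (SE 0.24, adjusted p = 0.798), Slc6a13, a GABA transporter of the meninges, of -0.34 (SE 0.37), and Mgp, a matrix protein, of -0.02 (SE 0.21). On CAS, Col3a1 had a log2 ratio of 1.71 (SE 0.61), or 0.52 (SE 0.39) without rats 3 and 5, and the difference between the diets was -2.19 (adjusted p = 0.474), or -1.14 (adjusted p = 0.482) without them. The summed level of the 3 meningeal markers on whole egg was 41.0 to 75.9 CPM in lean and 36.7 to 52.9 CPM in ZDF rats. Pdgfrb, a receptor of pericytes, ranged from 1.16 to 9.14 CPM in lean and from 1.69 to 5.57 CPM in ZDF rats, with a log2 ratio of -0.20 (SE 0.41).

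Slc30a3, which loads zinc into the vesicles of glutamate synapses and was picked after its values were seen, ranged from 140.5 to 499.6 CPM in lean rats (median 238.8) and from 225.8 to 888.9 CPM in ZDF rats (median 432.2). ZDF rats 16 and 18 were above all lean rats, the other 4 were within the lean range, and the log2 ratio was 0.83 (SE 0.32, adjusted p = 0.798). On CAS it was -1.31 (SE 0.49), and the difference between the diets was 2.12 (SE 0.63, adjusted p = 0.455). Without the shallow libraries of rats 3 and 5 these were -1.02 (SE 0.50) and 1.85 (SE 0.63, adjusted p = 0.482). Lean CAS rat 15 was at 1339 CPM and the other lean CAS rats at 181.1 to 512.8 CPM.

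Genes of fuel use were few among those with symbols. Of 5 measured genes of fatty acid and ketone body use (25 in the list), Slc16a1, the monocarboxylate transporter that carries lactate and ketone bodies into the brain, had the smallest p. It ranged from 2.76 to 10.7 CPM in lean rats (median 5.39) and from 0.846 to 4.05 CPM in ZDF rats (median 2.30), with overlap, and its log2 ratio was -1.18 (SE 0.40, adjusted p = 0.798). Lean rat 2 was the highest and ZDF rat 11 the lowest. It had few counts, 2 to 21 per whole egg library, and on CAS its log2 ratio was -0.14 (SE 0.53), or -0.09 (SE 0.50) without rats 3 and 5. Angptl4, an inhibitor of lipoprotein lipase that is induced by fasting, had a log2 ratio of 0.53 (SE 0.26, adjusted p = 0.798), and Lpl, that lipase, of -0.39 (SE 0.27, adjusted p = 0.798). On CAS these were 0.095 (SE 0.39) and 2.74 (SE 0.70), or -0.006 (SE 0.36) and 0.59 (SE 0.28) without rats 3 and 5. The median of the 5 was 0.03, and 0 of 5 passed.

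Of lipid synthesis genes, 0 of 8 lipogenic and 0 of 12 cholesterol genes passed, and 0 of them had an unadjusted p under 0.05 in edgeR. Fasn, the fatty acid synthase, ranged from 75.1 to 280.5 CPM in lean and from 82.5 to 315.4 CPM in ZDF rats, with a log2 ratio of 0.17 (SE 0.31), and Acsl3, an acyl-CoA synthetase, of 0.01 (SE 0.20). Srebf2, the main regulator of cholesterol synthesis, had a log2 ratio of 0.26 (SE 0.14, adjusted p = 0.798). The medians were 0.01 for lipogenesis and 0.07 for cholesterol synthesis and uptake.

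Of the glutathione and antioxidant enzymes, 17 of 47 genes were measured. Of these, 11 had a positive and 6 a negative log2 ratio, the median was 0.11, and 0 passed. On CAS the median of the 17 was -0.13, or -0.12 without the shallow libraries of rats 3 and 5. Idh2, which makes mitochondrial NADPH, was the 1 member of 17 with an unadjusted p under 0.05 in edgeR, where the share over all genes was 5.9%. It ranged from 38.1 to 68.3 CPM in lean rats (median 47.8) and from 51.1 to 83.8 CPM in ZDF rats (median 70.6). Its log2 ratio was 0.43 (SE 0.18, adjusted p = 0.798) on whole egg and 0.44 (SE 0.29) on CAS. The 2 members with the highest CPM, Prdx6, a peroxiredoxin, and Gstm7, a glutathione transferase, had log2 ratios of 0.07 (SE 0.15) and 0.16 (SE 0.18). On CAS these were -0.45 (SE 0.26) and -0.22 (SE 0.28), or -0.42 (SE 0.23) and -0.06 (SE 0.25) without rats 3 and 5. Gstm7 has close paralogs. The study states that reads were counted by the gene count function of STAR, and it does not describe reads shared between paralogs. Sdhb, the 1 measured gene of the respiratory chain, had 0.12 (SE 0.16).

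Of the stress and immune genes with symbols, 0 passed in edgeR, DESeq2 or limma-voom and 0 had an unadjusted p under 0.05 in edgeR. Hsd11b1, which regenerates active glucocorticoid, had a log2 ratio of 0.35 (SE 0.20, adjusted p = 0.798), with 15.2 to 21.7 CPM in lean and 16.8 to 29.3 CPM in ZDF rats. Hspa8, a constitutive chaperone, had -0.01 (SE 0.22), and Trib3, a gene of the integrated stress response at 0 to 2.96 CPM, had -0.27 (SE 0.65). Of 3 measured interferon and antigen presentation genes, 0 passed, and the median was -0.32: Mx2, an interferon-induced GTPase, had -0.32 (SE 0.28) and Irf1, a transcription factor, -0.05 (SE 0.26).

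**Figure D4:**
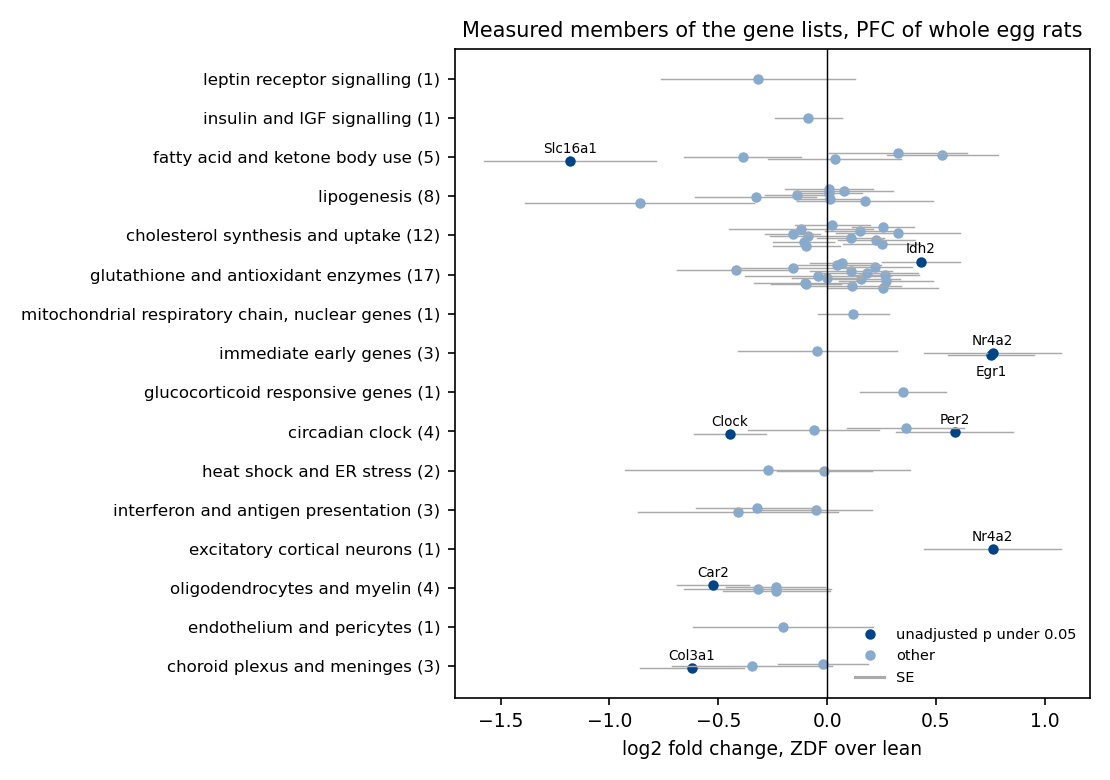
The log2 ratio of ZDF over lean in the PFC of whole egg rats (x axis) with its SE for each measured member of 16 gene lists, with the number of members in brackets. Dark points have an unadjusted p under 0.05, and 0 of the 66 genes pass over all genes tested. Nr4a2 stands in 2 lists.

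The genotype difference on whole egg was set beside that on CAS, which shares no library with it. On CAS edgeR called 0 of 8289 genes and DESeq2 called 72, and 473 (5.71%) were at an unadjusted p under 0.05 in edgeR. Over the 8289 genes, 3070 (37.0%) had the same sign on both diets, and the log2 ratios had a Pearson r of -0.29 and a Spearman rho of -0.32 across genes, which are not independent replicates. Without rats 3 and 5 these were 39.6%, -0.22 and -0.26. Of the 489 genes with an unadjusted p under 0.05 on whole egg, 149 (30.5%) had the same sign on CAS, and 37 had an unadjusted p under 0.05 on both diets, 32 of them with opposite signs. Without rats 3 and 5 these were 169 (34.6%), 24 and 18. With all CAS rats, the 5 with the same sign were ENSRNOG00000011815, ENSRNOG00000056457 (0.93 on whole egg and 0.94 on CAS), ENSRNOG00000056135 (0.80 and 0.73), ENSRNOG00000015155 (-0.48 and -0.81) and ENSRNOG00000009330 (0.42 and 0.63), and the last 4 were picked after their values were seen. The interaction of genotype and diet passed for 0 of 8289 genes in edgeR and 44 in DESeq2, with 826 (9.97%) at an unadjusted p under 0.05 in edgeR, so no gene was shown by edgeR to differ in its genotype effect between the diets.

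The study names 2 transcripts for the PFC of ZDF rats, both lower on whole egg than on CAS. That is a contrast of diets within ZDF rats, whereas the log2 ratios below are of ZDF over lean on the same diet. AY172581.14 (ENSRNOG00000032112) ranged from 15.0 to 68.9 CPM in lean whole egg rats (median 28.0) and from 14.4 to 26.6 CPM in ZDF whole egg rats (median 22.9), with a log2 ratio of -0.68 (SE 0.33, adjusted p = 0.798). Among ZDF CAS rats it ranged from 18.5 to 2042 CPM, and the 2 highest values, 1411 and 2042 CPM, belonged to the shallow libraries of rats 3 and 5, which hold 67861 and 164795 counts. Its log2 ratio on CAS was 4.71 (SE 0.91), and the interaction was -5.31 (adjusted p = 0.056). The other, ENSRNOG00000033932, ranged from 4.23 to 18.6 CPM in lean and from 2.13 to 8.19 CPM in ZDF whole egg rats, with a log2 ratio of -0.66 (SE 0.39, adjusted p = 0.798) on whole egg and 3.00 (SE 1.06) on CAS, where rats 3 and 5 stood at 543 and 274 CPM. Without these 2 rats the log2 ratios on CAS were 2.25 (SE 0.59) for AY172581.14, with an interaction of -2.93 (adjusted p = 0.482), and 0.66 (SE 0.71) for ENSRNOG00000033932. On whole egg, without lean rat 6, they were -0.36 (SE 0.30) and -0.23 (SE 0.35).

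**Figure D5:**
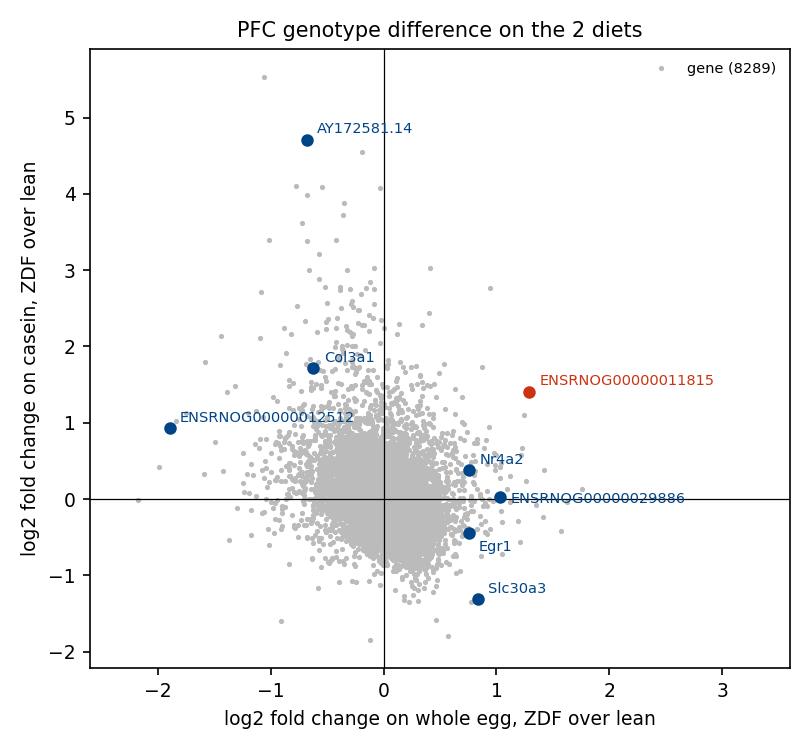
Each point is 1 of 8289 genes, with the log2 ratio of ZDF over lean in the PFC on whole egg (x axis) and on casein (y axis), from different rats. ENSRNOG00000011815 (red) lies at 1.29 and 1.41, while 37.0% of genes have the same sign on both diets.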

How the data were processed

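PFC RNA was made into QuantSeq 3' libraries, primed at the poly(A) tail. The authors trimmed the reads, aligned them with STAR to Rnor_6.0 and counted them per gene, and the deposited values are raw counts after a filter on genes seen in too few samples. The version of neither FastQC nor STAR is given in the sources used here. Alternatives changed the test, the scaling, the filter, the libraries or the source of the genotype. Lean and ZDF counts were joined by gene identifier. TMM factors, CPM and two-sided quasi-likelihood tests came from edgeR 4.0.16 (R 4.3.3), with Benjamini-Hochberg adjustment over all shared genes and an FDR of 5%, and no further filter. SE is the log2 ratio divided by the root of F. Alternatives used DESeq2 1.42.0 and limma-voom with quality weights (limma 3.58.1). Principal components used log2 CPM with a prior count of 2. The p-values set the difference between groups against the spread between rats. The study states that rats were dual-caged, but the labels give no cage, so each rat was treated as independent.

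The members and lists were chosen with earlier results of these data known. Genes named were the called genes (12 at most in each direction, or the 3 with the smallest p where none passed, with at most 2 without a symbol), Lepr, the 2 PFC transcripts the study names, and for each list at most 3 called members, or the 2 with the highest CPM where fewer than 2 were called. Per2, Per3, Car2, Slc16a1, Idh2, Inhba, Enpp2, Slc6a13, Rtn1 and those so marked in the text were picked after their values were seen. Symbols came from the study's list of called genes, which pairs 550 identifiers. All 48 columns used named 1 rat each. Figures were drawn with matplotlib. A gene that the rule also names is not reported here.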

Additional observations from a re-analysis of the deposited data

Results flagged for a closer look

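Dixon's test was used to screen 80 groups of 6 rats (40 named genes in lean and in ZDF whole egg rats). Of these, 7 held a rat far from the other 5, each time as the highest value. Chance flags about 1 in 20 only where values are normally distributed. Whether CPM values are was not tested, so the 7 flags cannot be read against that rate. Lean rat 21 was far above the other lean rats for ENSRNOG00000011815, at 44.1 CPM with the next at 30.5. Lean rat 6 was the highest for ENSRNOG00000033932, the second of the 2 PFC transcripts the study names, at 18.6 CPM with the next at 8.63. Lean rat 2 was the highest for Angptl4, at 15.2 CPM with the next at 9.41. For Fasn, lean rat 10 was the highest at 280.5 CPM with the next at 152.1, and ZDF rat 11 was the highest at 315.4 CPM with the next at 166.4. ZDF rat 7 was the highest for Per3, at 7.11 CPM with the next at 5.50. ZDF rat 20 was the highest for Enpp2, at 20.1 CPM with the next at 10.5. No gene named here passed the test of a difference in genotype effect between whole egg and CAS at an FDR of 5% in edgeR.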

How the results depend on the processing

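The count of 1 gene in the PFC of whole egg rats was 1 with RLE factors, upper quartile factors, a minimum count of 10, robust dispersions, library sizes of the whole tables, an FDR of 10%, and 1 genotype term over the 24 PFC libraries or over the 22 without rats 3 and 5, and in each the gene was ENSRNOG00000011815. It was 4 with DESeq2, with its own size factors or with TMM factors, 0 with limma-voom and quality weights (adjusted p = 0.0646, 1153 genes at an unadjusted p under 0.05), 0 with all 24 PFC libraries in a model of 4 groups (adjusted p = 0.0567), 0 among the 1616 genes of at least 100 CPM, which leave ENSRNOG00000011815 out, and 0 with the strain of the sample labels (1056 at an unadjusted p under 0.05). Leaving out 1 rat gave 0 to 6 genes, with 6 without lean rat 21, and ENSRNOG00000011815 stayed among the calls only without lean rat 21 or ZDF rat 7 or 16. DESeq2 called 72 genes on CAS and 44 for the interaction, where edgeR called 0 with or without rats 3 and 5, and 2 in the kidney and 9 in adipose tissue, a choice made after the data were seen, as was leaving out adipose libraries, which gave 0 called genes without rat 6 or rat 11 and 2 without rats 6, 11 and 13 in edgeR. The numbers of list members called were 0 in every alternative.

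With the strain of the sample labels, which makes 5 of the 12 whole egg rats ZDF and 7 lean, 25 of the 40 named genes changed sign. ENSRNOG00000011815 had a log2 ratio of -0.56 (adjusted p = 0.488), and the others were ENSRNOG00000029886 -0.24, ENSRNOG00000012512 0.39, Lepr 0.14, AY172581.14 0.98, ENSRNOG00000033932 0.82, Nr4a2 -0.89, Inhba 0.62, Per2 -0.42, Per3 0.47, Mbp 0.39, Qdpr 0.55, Car2 0.11, Enpp2 0.17, Mgp 0.061, Slc6a13 0.66, Angptl4 -0.17, Acsl3 -0.082, Srebf2 -0.069, Sdhb -0.077, Hsd11b1 -0.15, Trib3 1.05, Pik3ca 0.074, Slc30a3 -0.52, Rtn1 -0.14. Which source gives the right genotype was not tested. Elsewhere Per3 was 0.054 and Mbp 0.0063 with limma-voom, and Acsl3 was -0.011 with upper quartile factors, -0.16 with limma-voom, -0.00034 with library sizes of the whole tables and -0.015 among genes of at least 100 CPM. With 1 rat left out, genes that changed sign spanned Acsl3 -0.17 to 0.12, Fasn -0.12 to 0.48, Hspa8 -0.11 to 0.17, Inhba -0.30 to 0.18, Irf1 -0.19 to 0.066, Mbp -0.39 to 0.010, Mgp -0.12 to 0.091, Pdgfrb -0.40 to 0.11, Per3 -0.17 to 0.10, Prdx6 -0.0046 to 0.13, Trib3 -0.71 to 0.089. Over these fits 25 of the 40 named genes changed sign or moved by over 1.5 times in log2 ratio. ENSRNOG00000029886 and ENSRNOG00000012512 passed with DESeq2 alone. The cause of these changes was not tested. No paired analysis was possible because the ZDF and lean groups hold different rats, and a rat number is shared only between tissues of 1 rat.

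At this depth the median SE was 0.18 for genes of at least 100 CPM and 0.38 for genes under 10 CPM on the log2 scale.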
